A study of Homo sapiens with 8 samples.

Results

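The genes described are 10 members of the matrix metalloproteinase system: the proteases MMP1, MMP2, MMP3, MMP10, MMP12, MMP14 and MMP16 and the tissue inhibitors of metalloproteinases TIMP1, TIMP2 and TIMP3. They were chosen by name, with earlier results of these data known, and are 10 of the 54628 genes in the deposited count table. The gene lists used below were chosen likewise. Shares over all genes are therefore given beside their counts as a description, not as a test of the lists. All 10 passed the filter on low counts that left 17155 genes for testing, MMP12 only through its senescent libraries. The 8 libraries are messenger RNA of IMR90-hTERT, human fetal lung fibroblasts that telomerase keeps dividing. All libraries came from cells that carried pInducer20, a doxycycline-inducible vector, with a Flag-tagged YAP5SA. This mutant of the coactivator YAP lacks the serines through which the Hippo pathway restrains it. There were 4 groups of 2 replicates: senescent cells with doxycycline, senescent cells without it, proliferating cells with doxycycline and proliferating cells without it. Senescence was induced with bleomycin, a drug that breaks DNA, at 10 ug/ml for 24 hours, and cells were taken 9 days later. Doxycycline was given at 1 ug/ml for 11 days. If it ran until the cells were taken, it began before bleomycin. Doxycycline in senescent cells then need not mean treatment of cells that were already senescent. All groups were kept in 3% oxygen with 15% serum. No doxycycline-treated cells without the transgene were included, so effects of the drug and of YAP5SA cannot be told apart. Whether the replicates came from separate cultures is not said in the labels, and the p-values then measure only the spread between libraries, which may be technical.

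Matrix metalloproteinases are zinc enzymes, secreted or anchored in the membrane, that cut collagens, other matrix proteins and signalling molecules. Most are made as inactive proenzymes whose prodomain must be removed, by plasmin, by furin-like convertases or by another MMP. TIMPs bind the active site of the mature enzymes. TIMP2 also bridges pro-MMP2 to MMP14 at the cell surface, where MMP14 activates it. Fibroblasts are a main source of these enzymes in lung, and several are well-known parts of the secreted programme of senescent fibroblasts. Transcripts were measured here, not protein or proteolytic activity.

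Of the 10 members, 4 had an entry in the RefSeq promoter table (GRCh38.p14): MMP10, MMP14, TIMP1 and TIMP3. The 250 bases before the start site are shown for MMP10, whose change with bleomycin did not pass the test, and for TIMP3, the member with most reads, which rose. The first is chr11:102780629-102780878 on the minus strand and the second chr22:32801455-32801704 on the plus strand. Capitals mark matches to TGANTCA, the AP-1 motif, and to TATAAA, the TATA box.
MMP10: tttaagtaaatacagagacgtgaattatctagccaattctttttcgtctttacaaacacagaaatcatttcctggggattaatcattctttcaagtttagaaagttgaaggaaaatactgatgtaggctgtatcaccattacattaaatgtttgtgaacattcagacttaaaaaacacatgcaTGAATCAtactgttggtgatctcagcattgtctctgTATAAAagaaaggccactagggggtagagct
TIMP3: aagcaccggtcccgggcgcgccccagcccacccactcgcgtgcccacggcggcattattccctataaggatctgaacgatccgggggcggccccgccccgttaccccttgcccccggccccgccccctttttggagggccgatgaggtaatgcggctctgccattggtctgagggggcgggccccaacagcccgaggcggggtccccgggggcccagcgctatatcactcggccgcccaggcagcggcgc
The MMP10 window had a G+C content of 34.4%, an AP-1 match 67 to 61 bases before the start and a TATA box 31 to 26 bases before it. The TIMP3 window had a G+C content of 72.4% and held neither motif. The windows of MMP14 (56.8% G+C) and TIMP1 (64.8% G+C) held neither. None of the 4 held GGAATG, the core of TEAD sites. Over 35116 promoters of the same length, 6.57% held the AP-1 motif and 11.9% the TEAD motif on either strand, and 6.80% held the TATA box on the sense strand. A match to these letters is a description, not evidence of binding.

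Total counts ran from 33627708 to 39692162 per library. Levels are given as CPM, counts relative to the library size after scaling with TMM factors, and means as mean ± SD with n = 2 per group. YAP1, whose count sums endogenous and any transgene reads, stood at 291 and 287 CPM in senescent cells with doxycycline, against 190.3 and 223 CPM in senescent cells without it. It was at 190.2 and 238 CPM in proliferating cells with doxycycline and 198 and 195 CPM in proliferating cells without it. The doxycycline difference passed the test in senescent cells (log2 0.48, adjusted p = 0.00140) and did not in proliferating cells (log2 0.12, adjusted p = 0.431). All 10 fibroblast markers were above 1 CPM in every group. The 8 epithelial markers summed to 3.75 to 3.998 CPM in senescent cells with doxycycline, 1.06 to 1.28 CPM in senescent cells, 1.71 to 1.99 CPM in proliferating cells with doxycycline and 0.852 to 1.10 CPM in proliferating cells. Of these, KRT14, CDH1 and OCLN rose with doxycycline in senescent cells (log2 5.83, 2.88 and 1.36). KRT14 and CDH1 also rose with it in proliferating cells (log2 6.335 and 6.57), from 0 counts in untreated proliferating cells. The fibroblast markers summed to 12650 to 15110 CPM in senescent cells with doxycycline and 26180 to 27220 CPM in senescent cells, against 18710 to 18990 CPM in proliferating cells with doxycycline and 26830 to 27030 CPM in proliferating cells. The 8 endothelial markers summed to 98.5 to 109 CPM in senescent cells with doxycycline and 137 to 157 CPM in senescent cells, against 48.6 to 53.5 CPM in proliferating cells with doxycycline and 70.1 to 71.4 CPM in proliferating cells. Nearly all of the endothelial sum was TEK, at a mean of 100.8 CPM in senescent cells with doxycycline and 144 CPM in senescent cells. TEK averaged 47.8 CPM in proliferating cells with doxycycline and 69.3 CPM in proliferating cells. PECAM1, CDH5, KDR, CLDN5 and ERG had 0 to 5 counts a group, VWF 30 to 82 and TIE1 73 to 211. VWF rose with bleomycin (log2 1.24) and with bleomycin under doxycycline (log2 1.45). TIE1 rose with doxycycline in proliferating cells (log2 1.64) and fell with bleomycin under doxycycline (log2 -0.99). The marker sums move with the treatments, and their part in the results below was not tested.

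Bleomycin without doxycycline, which compares senescent with proliferating cells, raised most members. It raised 8 of 10 and lowered MMP16, while MMP10 did not pass the test. Of all tested genes, 29.8% rose and 29.4% fell. The 3 TIMPs all rose, as did 5 of the 7 MMPs. The median log2 change was 0.82 over the members, against 0.01 over all tested genes. In bulk RNA, a change in the number of cells of a kind and a change in RNA per cell cannot be told apart. All adjusted p-values are from edgeR's quasi-likelihood test with Benjamini-Hochberg adjustment over the 17155 genes.

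Doxycycline in senescent cells lowered 8 of 10 members and raised none, where 23.8% of all tested genes fell and 22.6% rose, and MMP12 and MMP16 did not pass. The median log2 change was -0.81, against -0.00 over all genes. In proliferating cells it raised MMP1 and TIMP3, lowered MMP2 and TIMP1 and left 6 below the threshold, where 12.6% of all genes rose and 10.4% fell. The median there was -0.12, against 0.00 over all genes. The doxycycline effect in senescent cells was lower than that in proliferating cells for 6 members and higher for none. That test called 11.8% of all genes lower and 8.08% higher, with a median of -0.69 over the members and -0.03 over all genes.

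When bleomycin was compared under doxycycline, 4 members rose (MMP1, MMP3, MMP12 and TIMP3) and 2 fell (MMP14 and MMP16), where 26.8% of all genes rose and 28.7% fell. The median was 0.12, against -0.01 over all genes. The comparisons share libraries, so they are not independent of each other. When libraries were scaled by total counts alone, the all-gene median was -0.16 for bleomycin without doxycycline, 0.17 for doxycycline in senescent cells and 0.15 for the difference between the states. Of the genes called for bleomycin, 37.1% were then higher, against 50.3% with TMM factors. For doxycycline in senescent cells 69.3% were higher, against 48.7%, and for the difference between states 70.5%, against 40.7%. Of the members, 7 were then higher and 1 lower with bleomycin, 6 lower with doxycycline in senescent cells and 5 lower for the difference, with no called member changing sign.

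**Figure D1:**
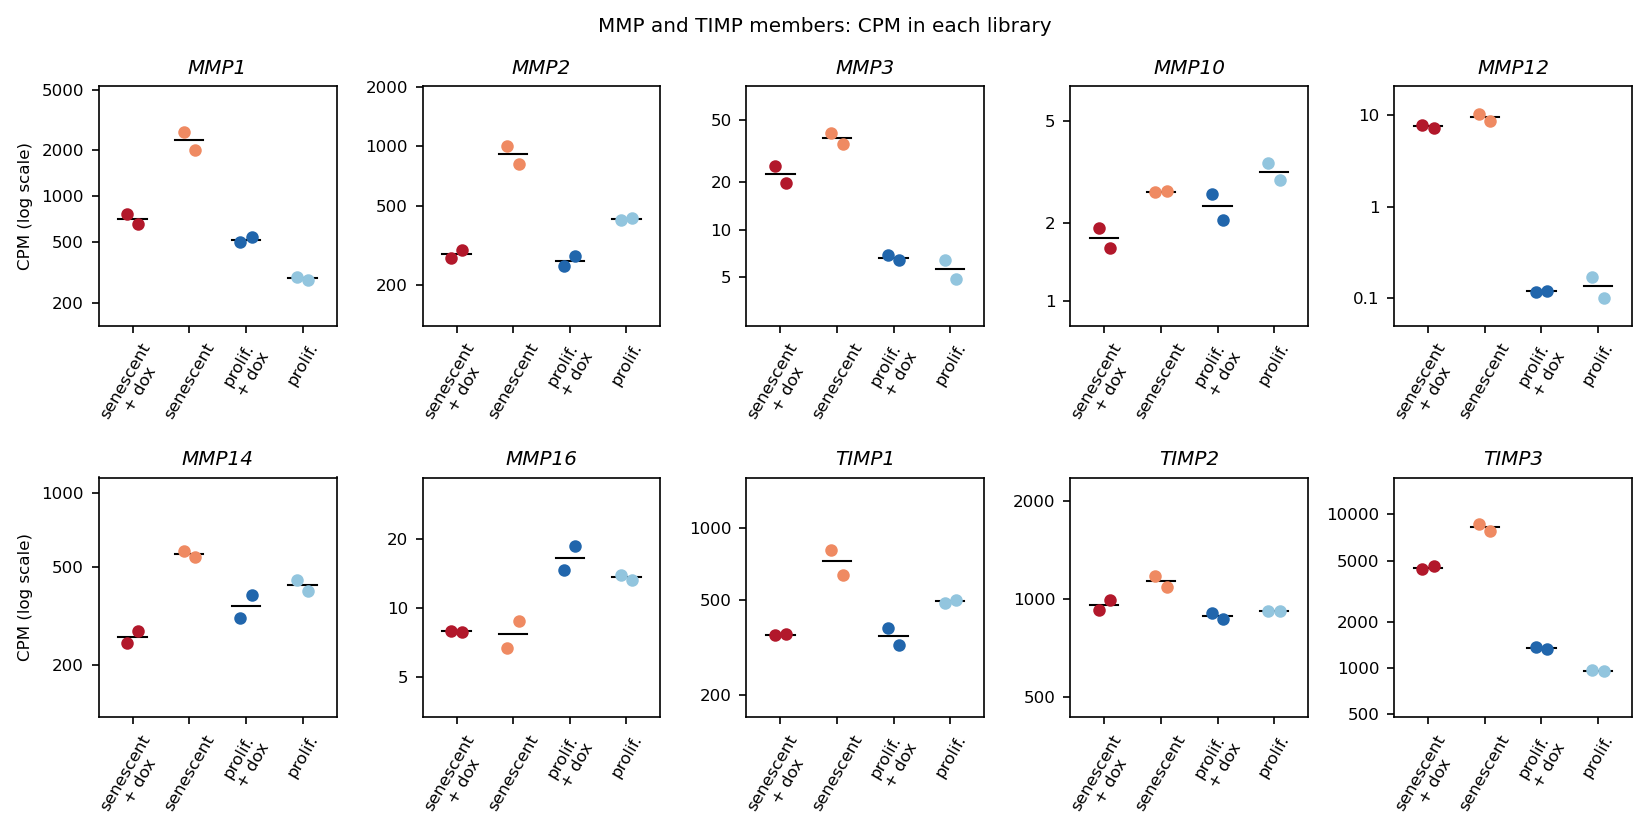
CPM of each member in each of the 8 libraries on a log scale, with points for libraries and bars for the mean of 2 replicates. Senescent cells without doxycycline were highest for 8 of the 10 genes, MMP10 and MMP16 being the exceptions.

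**Figure D2:**
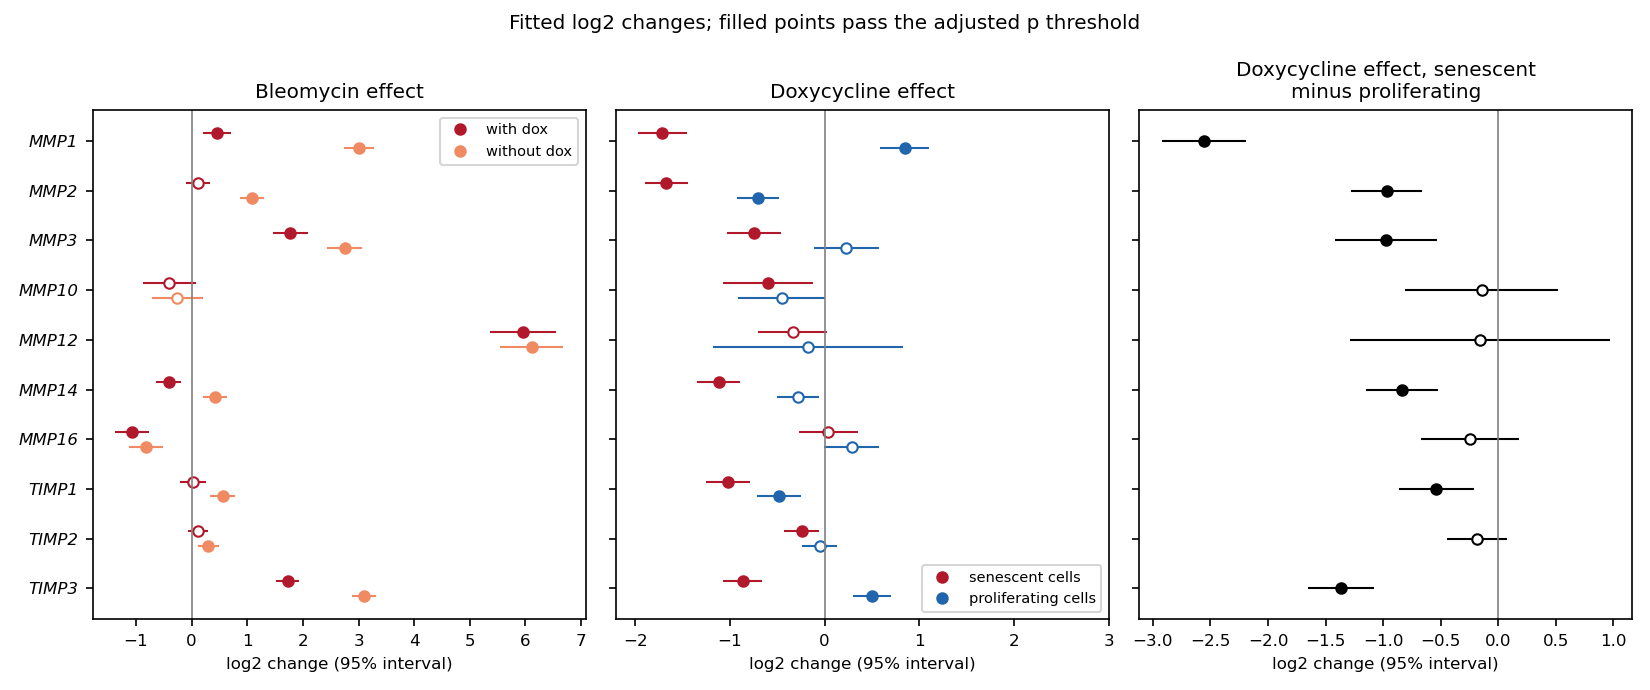
Fitted log2 changes with 95% intervals for the bleomycin effect, the doxycycline effect and the difference of the doxycycline effects. Filled points passed the adjusted p of 0.05: MMP1 and TIMP3 lie on opposite sides of 0 for doxycycline in senescent and in proliferating cells.

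MMP1 (chromosome 11, 102789919 to 102798160, minus strand) encodes interstitial collagenase, which makes the first cut in fibrillar collagens. It had 764 and 653.5 CPM in senescent cells with doxycycline and 2643 and 2000 CPM in senescent cells, against 497 and 539 CPM in proliferating cells with doxycycline and 295 and 282 CPM in proliferating cells. The 4 groups did not overlap, and both treatments alone were above the untreated level. MMP1 rose 8.04-fold with bleomycin (log2 3.01, SE 0.13, adjusted p = 3.43e-11). In proliferating cells it rose with doxycycline (log2 0.84, SE 0.12, adjusted p = 0.000116), and in senescent cells it fell 3.28-fold (log2 -1.71, SE 0.12, adjusted p = 3.58e-08). The doxycycline effect therefore had opposite signs in the 2 states, and their difference was -2.56 (SE 0.17, adjusted p = 2.59e-07). Under doxycycline, bleomycin raised MMP1 by a log2 of 0.45 (adjusted p = 0.00490), a call lost without replicate 1 of proliferating cells with doxycycline (adjusted p = 0.0649) or replicate 1 of senescent cells with it (adjusted p = 0.0721).

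The pseudogene WTAPP1 (chromosome 11, 102746968 to 102836766, plus strand) spans MMP1 and MMP10 whole, largely within introns, and overlaps 21.1% of the exon bases of MMP3, on the opposite strand. The sources used here do not state whether counting used strand, and the counts of MMP1 and WTAPP1 are uncertain where their exons overlap. Of the 50-base stretches of MMP1 transcripts, 2.92% lie in antisense in WTAPP1 transcripts. WTAPP1 averaged 118 CPM in senescent cells with doxycycline and 608 CPM in senescent cells, against 81.9 CPM in proliferating cells with doxycycline and 46.9 CPM in proliferating cells. Per 100 counts of MMP1 there were 16.7 and 16.7 of WTAPP1 in senescent cells with doxycycline and 26.8 and 25.4 in senescent cells. Proliferating cells had 15.2 and 16.3 with doxycycline and 16.1 and 16.4 without it. WTAPP1 thus followed MMP1 in all groups, at a higher share in senescent cells without doxycycline. The part of shared reads in this was not tested.

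MMP3 (chromosome 11, 102835801 to 102843609, minus strand), or stromelysin-1, cuts proteoglycans, laminin and fibronectin and activates other pro-MMPs, MMP1 among them. It had 25.6 and 19.8 CPM in senescent cells with doxycycline and 41.0 and 35.1 CPM in senescent cells. Proliferating cells had 6.86 and 6.43 CPM with doxycycline and 6.42 and 4.89 CPM without it. Both senescent groups stood clear of both proliferating groups. MMP3 rose 6.72-fold with bleomycin (log2 2.75, SE 0.15, adjusted p = 1.08e-09) and 3.42-fold with bleomycin under doxycycline (adjusted p = 1.49e-07). Doxycycline lowered it in senescent cells (log2 -0.74, SE 0.13, adjusted p = 0.000418) but not detectably in proliferating cells (log2 0.23, adjusted p = 0.340), and the difference was -0.97 (adjusted p = 0.00478).

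MMP10 (chromosome 11, 102770502 to 102780628, minus strand), or stromelysin-2, has a similar substrate range to MMP3. It had 1.91 and 1.59 CPM in senescent cells with doxycycline and 2.63 and 2.68 CPM in senescent cells, against 2.59 and 2.06 CPM in proliferating cells with doxycycline and 3.42 and 2.93 CPM in proliferating cells. Its level was low in all groups, with 57 to 140 counts a library. Bleomycin gave a log2 change of -0.26 with a 95% interval of -0.72 to 0.20, which excludes a rise of the size seen for MMP3. The fall with doxycycline in senescent cells (log2 -0.60, adjusted p = 0.0403) was lost without any of 6 of the 8 libraries (adjusted p of 0.0585 to 0.194). It was also lost under 4 other settings: total counts, DESeq2, no filter and only the libraries compared (adjusted p of 0.0558 to 0.138). Of the 50-base stretches of MMP3 and MMP10, 2.88% and 3.36% are shared between them.

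MMP2 (chromosome 16, 55478830 to 55506691, plus strand), or gelatinase A, degrades denatured collagen and basement-membrane collagen. It had 273 and 301 CPM in senescent cells with doxycycline and 1008 and 819 CPM in senescent cells. Proliferating cells had 249 and 279 CPM with doxycycline and 425 and 435 CPM without it. The groups with doxycycline overlapped, and both lay below the groups without it. Bleomycin raised MMP2 2.13-fold (log2 1.09, SE 0.10, adjusted p = 2.38e-07), and under doxycycline the change was 0.12 with an interval of -0.10 to 0.34 (adjusted p = 0.350). Doxycycline lowered MMP2 in both states, by a log2 of -1.67 in senescent cells (adjusted p = 6.13e-09) and -0.70 in proliferating cells (adjusted p = 0.000131), and the fall was larger in senescent cells (difference -0.97, adjusted p = 0.000310).

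MMP12 (chromosome 11, 102862736 to 102874982, minus strand), macrophage elastase, cuts elastin and is best known from macrophages. It had 309 and 262 counts in senescent cells with doxycycline and 374 and 287 counts in senescent cells, against 4 and 5 counts in proliferating cells with doxycycline and 7 and 4 counts in proliferating cells. The means were 7.60 ± 0.382 CPM in senescent cells with doxycycline and 9.60 ± 1.24 CPM in senescent cells, against 0.120 ± 0.00260 CPM in proliferating cells with doxycycline and 0.136 ± 0.04995 CPM in proliferating cells. MMP12 was nearly silent in proliferating cells and clearly present in both senescent groups. The fitted change was 69.0-fold with bleomycin (log2 6.11, SE 0.27, adjusted p = 2.60e-11) and 61.8-fold with bleomycin under doxycycline (log2 5.95, adjusted p = 7.25e-11). These folds rest on 11 pooled counts in proliferating cells and 9 in proliferating cells with doxycycline. MMP12 passed the low-count filter only through its senescent libraries. A gene that passes in this way can only be higher in senescent cells, so these p-values are no separate evidence of a rise. Doxycycline gave changes of -0.34 in senescent cells (interval -0.70 to 0.03, adjusted p = 0.121) and -0.18 in proliferating cells (interval -1.18 to 0.82). MMP12 and MMP16 were the only members that neither doxycycline comparison called.

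Leukocyte and macrophage markers were checked beside MMP12. PTPRC, the pan-leukocyte CD45, had 12 counts over both libraries of senescent cells with doxycycline, 14 in senescent cells, 5 in proliferating cells with doxycycline and 2 in proliferating cells. CD163 had 3 counts in each senescent group and none in either proliferating group, and MARCO had 5 in each senescent group, 1 in proliferating cells with doxycycline and none in proliferating cells. LYZ had 3 counts in each senescent group, none in proliferating cells with doxycycline and 1 in proliferating cells. CSF1R had 20 counts in senescent cells with doxycycline and 30 in senescent cells, against 45 in proliferating cells with doxycycline and 59 in proliferating cells, and fell with bleomycin under doxycycline (log2 -1.16, adjusted p = 0.0321). CD14 had 20 counts in senescent cells with doxycycline and 16 in senescent cells, against 19 in proliferating cells with doxycycline and 48 in proliferating cells, and fell with bleomycin (log2 -1.33, adjusted p = 0.0296). SPI1, which encodes the myeloid factor PU.1, had 90 counts in senescent cells with doxycycline and 30 in senescent cells, against 55 in proliferating cells with doxycycline and 32 in proliferating cells, and rose with doxycycline in senescent cells (log2 1.45, adjusted p = 0.0107). ITGAM, CD3E and CD79A had 0 to 24 counts a group. The markers called did not move in 1 direction, and their part in the MMP12 result was not tested. The list of 11 summed to 65.9 to 66.5 CPM in senescent cells with doxycycline, 125 to 171 CPM in senescent cells, 53.7 to 56.4 CPM in proliferating cells with doxycycline and 70.5 to 73.4 CPM in proliferating cells. Nearly all of it was CD68, a lysosomal protein that fibroblasts also make, which rose with bleomycin (log2 1.06) and fell with doxycycline in senescent cells (log2 -1.19), with 63.9 CPM in senescent cells with doxycycline and 146 CPM in senescent cells, against 53.1 CPM in proliferating cells with doxycycline and 69.9 CPM in proliferating cells.

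MMP14 (chromosome 14, 22836585 to 22847758, plus strand) encodes MT1-MMP, a membrane-bound collagenase and the activator of pro-MMP2. It had 244.5 and 275.5 CPM in senescent cells with doxycycline and 579 and 551 CPM in senescent cells, against 310.3 and 384 CPM in proliferating cells with doxycycline and 445 and 401 CPM in proliferating cells. The 4 groups did not overlap, and the order of the states turned with doxycycline. Without it, MMP14 was higher in senescent cells (log2 0.42, SE 0.10, adjusted p = 0.00263), and with it lower (log2 -0.42, SE 0.10, adjusted p = 0.00310). The first call was lost without replicate 2 of proliferating cells (adjusted p = 0.0517), and the second without replicate 1 of senescent cells with doxycycline (adjusted p = 0.0602). Doxycycline lowered MMP14 2.17-fold in senescent cells (log2 -1.12, adjusted p = 5.04e-07). In proliferating cells the change was -0.28 (adjusted p = 0.0613), which passed under 7 of the alternatives (adjusted p of 0.00461 to 0.0488), and the difference between states was -0.83 (adjusted p = 0.00104).

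MMP16 encodes MT3-MMP, another membrane-type enzyme that can activate pro-MMP2. It had 7.95 and 7.86 CPM in senescent cells with doxycycline and 6.67 and 8.76 CPM in senescent cells. Proliferating cells had 14.6 and 18.5 CPM with doxycycline and 13.96 and 13.3 CPM without it. MMP16 was the member that fell with bleomycin both with and without doxycycline, by a log2 of -0.82 without doxycycline (SE 0.14, adjusted p = 0.000131) and -1.07 with it (SE 0.14, adjusted p = 1.01e-05). Doxycycline gave 0.04 in senescent cells (interval -0.28 to 0.35) and 0.29 in proliferating cells (adjusted p = 0.151, and 0.0464 without replicate 1 of proliferating cells with doxycycline).

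TIMP3 (chromosome 22, 32801705 to 32863041, plus strand) binds to the matrix and, unlike other TIMPs, also inhibits many ADAM and ADAMTS proteases. It had 4399 and 4606 CPM in senescent cells with doxycycline and 8664 and 7753 CPM in senescent cells, against 1378 and 1341 CPM in proliferating cells with doxycycline and 966 and 958 CPM in proliferating cells. The groups kept the order seen for MMP1, without overlap. TIMP3 rose 8.53-fold with bleomycin (log2 3.09, SE 0.10, adjusted p = 1.15e-12) and 3.31-fold with bleomycin under doxycycline (adjusted p = 6.76e-10). Like MMP1 it rose with doxycycline in proliferating cells (log2 0.50, SE 0.09, adjusted p = 0.00117) and fell with it in senescent cells (log2 -0.87, SE 0.09, adjusted p = 2.63e-06), with a difference of -1.37 (SE 0.13, adjusted p = 6.72e-06). TIMP3 lies inside SYN3 on the opposite strand, which had 6 to 18 counts a library.

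TIMP1 (chromosome X, 47582436 to 47586789, plus strand) inhibits most secreted MMPs and inhibits membrane-type MMPs poorly. It had 356 and 359 CPM in senescent cells with doxycycline and 811 and 638 CPM in senescent cells. Proliferating cells had 382 and 324 CPM with doxycycline and 487 and 499 CPM without it. As for MMP2, the groups with doxycycline overlapped below those without it. TIMP1 rose with bleomycin (log2 0.55, SE 0.11, adjusted p = 0.000422) and not detectably with bleomycin under doxycycline (log2 0.02, interval -0.21 to 0.25). Doxycycline lowered it in senescent (log2 -1.02, adjusted p = 2.46e-06) and proliferating cells (log2 -0.48, adjusted p = 0.00450). The difference of -0.54 (adjusted p = 0.0234) was lost without any of 6 of the 8 libraries (adjusted p of 0.0562 to 0.0952), with total counts (0.0780) and with the description's replicate number as a block (0.0917). TIMP1 lies inside SYN1 on the opposite strand, which had 1 to 8 counts a library.

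TIMP2 (chromosome 17, 78852977 to 78925387, minus strand) moved least. It had 924 and 992 CPM in senescent cells with doxycycline and 1178 and 1085 CPM in senescent cells, against 905 and 868 CPM in proliferating cells with doxycycline and 921 and 916 CPM in proliferating cells. Senescent cells without doxycycline stood highest, 1.23-fold above proliferating cells in the fit (log2 0.30, SE 0.09, adjusted p = 0.00733), and doxycycline lowered TIMP2 there by a log2 of -0.24 (adjusted p = 0.0333). With total counts as the scaling neither passed (log2 0.12 and -0.07, adjusted p = 0.163 and 0.452). The bleomycin call was also lost with the description's number as a block (adjusted p = 0.0559) and without any of 3 libraries, both of proliferating cells and replicate 1 of senescent cells (adjusted p of 0.0590 to 0.0722). The doxycycline call was lost without any of those 3 or replicate 1 of senescent cells with doxycycline (adjusted p of 0.0692 to 0.202), with a stricter filter (0.0623) and with only the libraries compared (0.0666). CEP295NL, which overlaps TIMP2 on the same strand, had 0 to 8 counts a library.

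The members together took 0.733 and 0.731% of all counts in senescent cells with doxycycline and 1.35 and 1.20% in senescent cells, against 0.379 and 0.391% in proliferating cells with doxycycline and 0.368 and 0.364% in proliferating cells. MMP1 made up 57.7 and 51.6% of the MMP counts in senescent cells with doxycycline and 61.6 and 58.4% in senescent cells, against 46.0 and 43.9% in proliferating cells with doxycycline and 24.8 and 24.8% in proliferating cells. TIMP3 made up 77.5 and 77.3% of the TIMP counts in senescent cells with doxycycline and 81.3 and 81.8% in senescent cells, against 51.7 and 53.0% in proliferating cells with doxycycline and 40.7 and 40.4% in proliferating cells. The same enzyme and the same inhibitor thus dominated the counts of both senescent groups.

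Counts of MMPs per count of TIMPs were 0.233 and 0.213 in senescent cells with doxycycline and 0.403 and 0.362 in senescent cells, against 0.406 and 0.485 in proliferating cells with doxycycline and 0.500 and 0.480 in proliferating cells. The protease counts per inhibitor count were thus lower in both senescent groups than in untreated proliferating cells. Single pairs differed from the sum. There were 2.15 and 1.82 MMP1 counts per TIMP1 count in senescent cells with doxycycline and 3.26 and 3.14 in senescent cells, against 1.30 and 1.66 in proliferating cells with doxycycline and 0.605 and 0.566 in proliferating cells. Per TIMP3 count, MMP1 had 0.174 and 0.142 in senescent cells with doxycycline and 0.305 and 0.258 in senescent cells, against 0.361 and 0.402 in proliferating cells with doxycycline and 0.305 and 0.294 in proliferating cells. Against TIMP1, MMP1 was thus higher in all treated groups, while against TIMP3 senescent cells overlapped proliferating cells. For MMP2 per TIMP2 count, senescent cells with doxycycline had 0.295 and 0.304 and senescent cells 0.856 and 0.755, against 0.276 and 0.322 in proliferating cells with doxycycline and 0.461 and 0.475 in proliferating cells. For MMP14 per TIMP2 count, senescent cells with doxycycline had 0.265 and 0.278 and senescent cells 0.491 and 0.508, against 0.343 and 0.442 in proliferating cells with doxycycline and 0.483 and 0.438 in proliferating cells. MMP2 per TIMP2 was highest in senescent cells, and MMP14 per TIMP2 lowest in senescent cells with doxycycline. Ratios of counts do not measure the balance of proteins, and transcript length enters them.

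**Figure D3:**
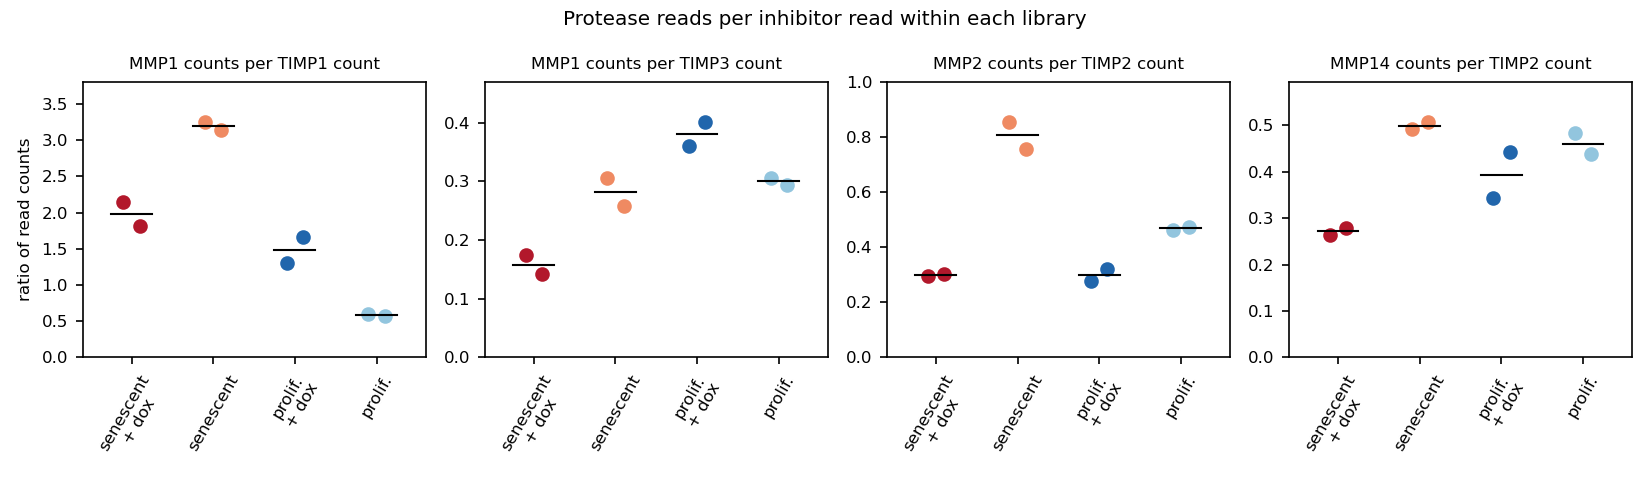
Counts of a protease per count of an inhibitor in each library, for 4 pairs, with points for libraries and bars for the mean of 2 replicates. MMP1 per TIMP1 was highest in senescent cells (3.26 and 3.14), while MMP1 per TIMP3 was lowest in senescent cells with doxycycline (0.174 and 0.142).

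Levels of different genes were compared per length, as CPM per kilobase of annotated exons. In senescent cells with doxycycline the order was TIMP3 (978), MMP1 (360), TIMP1 (245), TIMP2 (235), MMP14 (69.7), MMP2 (60.6), MMP3 (11.3), MMP12 (4.05), MMP10 (0.997) and MMP16 (0.684 CPM per kilobase), with no overlap of neighbours. In senescent cells it was the same but for MMP2 (193) above MMP14 (151), led by TIMP3 (1783) and MMP1 (1178 CPM per kilobase), again without overlap. In proliferating cells with doxycycline TIMP3 (295), MMP1 (263), TIMP1 (242) and TIMP2 (217.5 CPM per kilobase) stood close, and MMP1 with TIMP1, TIMP1 with TIMP2 and MMP16 with MMP10 overlapped. In proliferating cells the order opened with TIMP1 (338), TIMP2 (225), TIMP3 (209) and MMP1 (146.5) and closed with MMP12 (0.0723 CPM per kilobase). TIMP3 therefore stood first in the 3 treated groups and TIMP1 in untreated proliferating cells. The counted exons are not stated, so these levels per kilobase are approximate.

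MMP1, MMP3, MMP10 and MMP12 lie in a cluster of 9 MMP genes that spans 435225 bases of chromosome 11. The bleomycin changes of neighbours there differed in size. MMP10, with a log2 change of -0.26 (interval -0.72 to 0.20) that did not pass the test, lies 9291 bases from MMP1, which rose, and MMP3 and MMP12, which rose, lie on the other side of MMP1. Of the other genes of the cluster, MMP8, neutrophil collagenase, had 18 and 5 counts in senescent cells with doxycycline and 10 and 18 in senescent cells, against 1 and 1 in proliferating cells with doxycycline and none in proliferating cells. A floor of 3 counts was set over both libraries of untreated proliferating cells. Against it, the pooled MMP8 level was 8.27-fold higher in senescent cells with doxycycline and 11.0-fold higher in senescent cells. These values allow for counting error in the reference only, and the first compares groups that differ in both treatments. MMP13, collagenase-3, had 6 counts over the libraries of senescent cells with doxycycline and 12 in senescent cells, and none in either proliferating group. MMP7 had 6 counts in senescent cells and 1 in proliferating cells, and MMP20 and MMP27 had at most 1 count in any group.

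**Figure D4:**
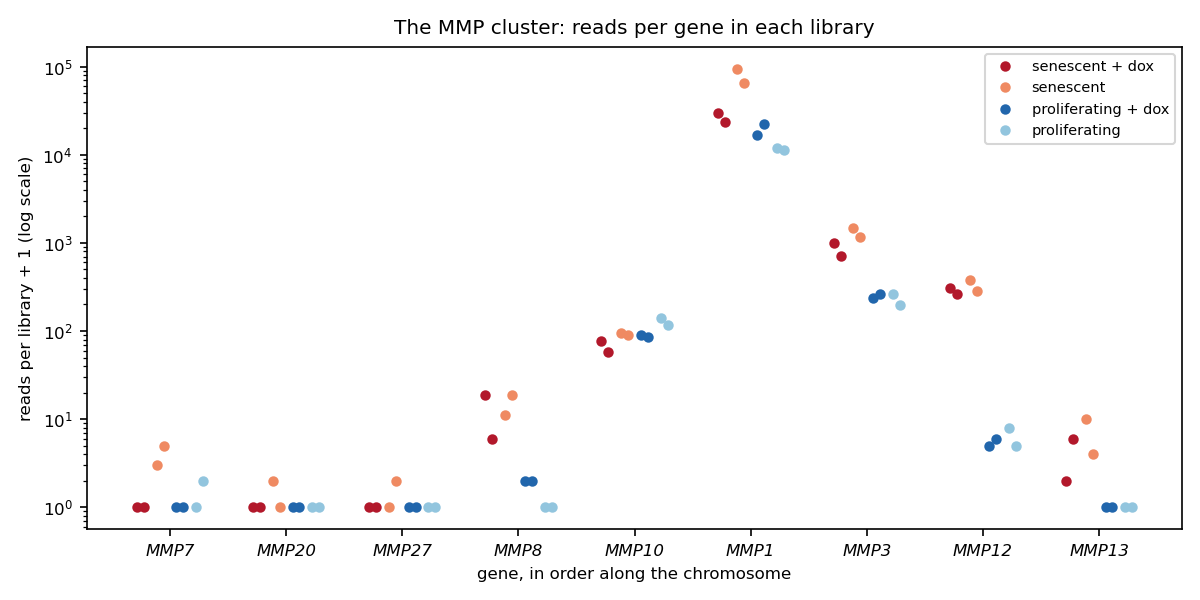
Counts + 1 of the 9 genes of the MMP cluster in each library, on a log scale, in their order along the chromosome. MMP1, MMP3, MMP12 and MMP8 were higher in all senescent libraries than in untreated proliferating libraries, and MMP10 had 57 to 140 counts in every library.

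For the members whose log2 CPM spanned more than 2 over the 8 libraries, the 3 genes with the most similar pattern were found by the root mean square difference of centred log2 CPM, over 9892 genes whose mean log2 CPM reached 3 (9893 for MMP12). MMP1 was nearest to WTAPP1 (0.30), FBXL13 (0.32) and SRPX2 (0.33). MMP2 was nearest to ANPEP (0.11), which encodes aminopeptidase N, EML1 (0.12) and ANGPTL2 (0.13). MMP3 and TIMP3 were each the nearest gene of the other (0.19), followed for both by NFKBIZ (0.20), an IkappaB-family nuclear regulator, and then by CDKN1A (0.22) for MMP3 and SHANK2 (0.25) for TIMP3. MMP12 was nearest to IFI6 (0.55), SERPING1 (0.65) and GALNT15 (0.65). Its log2 CPM spanned 6.10, against 2.02 to 3.23 for the other members so compared, with few counts in proliferating cells. Its distances therefore cannot be set against theirs.

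The other genes of the family moved less evenly. Of 17 further MMP and TIMP genes, 7 were tested, and 4 rose and 2 fell with bleomycin (median 0.39, against 0.01 over all genes). Of all tested genes 29.8% rose and 29.4% fell. With total counts 2 rose and 2 fell, where 3800 of all 17155 tested genes rose and 6441 fell. With doxycycline in senescent cells 1 rose and 2 fell, near the background of 22.6% higher and 23.8% lower, and the median was -0.09, or 0.08 with total counts. MMP15, the membrane-type MT2-MMP, averaged 2.91 ± 0.316 CPM in senescent cells with doxycycline and 1.02 ± 0.0646 CPM in senescent cells, against 2.27 ± 0.0114 CPM in proliferating cells with doxycycline and 0.470 ± 0.00866 CPM in proliferating cells. It rose with bleomycin (log2 1.11, adjusted p = 0.00305), as most members did. Doxycycline raised MMP15 in senescent cells (log2 1.51, adjusted p = 0.000117), where it raised no member, and in proliferating cells (log2 2.27, adjusted p = 1.33e-05). Doxycycline lowered MMP19 in both (log2 -0.67 and -0.48), and TIMP4 fell with bleomycin (log2 -0.91, adjusted p = 0.00857). MMP9, gelatinase B, had a mean of 0.0280 CPM in senescent cells and no count in the other groups.

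Genes of the plasminogen system and other activators of pro-MMPs mostly rose with bleomycin and fell with doxycycline in senescent cells. Of 12 tested genes of 15, 10 rose and none fell with bleomycin (median 1.00, against 0.01), where 29.8% of all tested genes rose and 29.4% fell. With doxycycline in senescent cells 2 rose and 9 fell (median -0.49, against -0.00), where 22.6% of all genes rose and 23.8% fell. With total counts 3 rose and 7 fell there (median -0.32), where 5649 of all 17155 tested genes rose and 2498 fell. For bleomycin 8 then rose and 0 fell, where 3800 of all tested genes rose and 6441 fell. PLAU, the urokinase that activates plasminogen, averaged 682 ± 68.8 CPM in senescent cells with doxycycline and 2387 ± 63.6 CPM in senescent cells, against 641 ± 27.6 CPM in proliferating cells with doxycycline and 1049 ± 5.10 CPM in proliferating cells. That is the order of MMP2. Doxycycline lowered PLAU in senescent cells (log2 -1.81, adjusted p = 8.36e-10) and CTSK, the collagen-cutting cathepsin K (log2 -2.14, adjusted p = 1.16e-10). HTRA1, a matrix-cutting serine protease, rose with doxycycline in senescent cells (log2 0.84). SERPINB2, or PAI-2, rose with bleomycin (log2 4.24) and with doxycycline in proliferating cells (log2 2.83) and fell slightly with it in senescent cells (log2 -0.27, adjusted p = 0.0381). In proliferating cells 3 of the 12 rose and 3 fell (median -0.10, against 0.00), where 12.6% of all genes rose and 10.4% fell.

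Of 18 other MMP inhibitors and surface partners, 12 rose and 3 fell with bleomycin (median 0.91, against 0.01 over all genes), where 29.8% of all tested genes rose and 29.4% fell. With doxycycline in senescent cells 2 rose and 11 fell (median -0.48, against -0.00), where 22.6% of all genes rose and 23.8% fell. With total counts 3 rose and 8 fell there (median -0.32), where 5649 of all 17155 tested genes rose and 2498 fell. RECK, a membrane-anchored MMP inhibitor, averaged 161 ± 10.6 CPM in senescent cells with doxycycline and 293 ± 4.57 CPM in senescent cells, against 72.0 ± 1.15 CPM in proliferating cells with doxycycline and 126 ± 1.41 CPM in proliferating cells. Doxycycline lowered RECK in senescent (log2 -0.86) and in proliferating cells (log2 -0.80), and the difference of -0.06 did not pass (adjusted p = 0.745). CD44, a hyaluronan receptor that docks MMPs, rose with bleomycin (log2 1.21) and fell with doxycycline in senescent cells (log2 -1.27, adjusted p = 2.35e-08). SDC1, syndecan-1, fell with bleomycin (log2 -1.63, adjusted p = 4.15e-10). In proliferating cells doxycycline raised 2 of the 18 and lowered 8 (median -0.32), where 12.6% of all genes rose and 10.4% fell.

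Of 23 matrix substrates of MMPs, 18 rose and 1, DCN, fell with bleomycin (median 0.67), against 29.8% of all tested genes higher and 29.4% lower. With total counts 16 rose and 2 fell, where 3800 of all 17155 tested genes rose and 6441 fell. With doxycycline 2 rose and 19 fell in senescent cells (median -1.26), against 22.6% of all genes higher and 23.8% lower. With total counts 3 rose and 15 fell there (median -1.10), where 5649 of all tested genes rose and 2498 fell. With doxycycline in proliferating cells 2 rose and 16 fell (median -0.63), against 12.6% of all genes higher and 10.4% lower. TNC, tenascin-C, averaged 86.4 ± 7.84 CPM in senescent cells with doxycycline and 677 ± 56.9 CPM in senescent cells, against 91.8 ± 14.2 CPM in proliferating cells with doxycycline and 156 ± 5.46 CPM in proliferating cells. Doxycycline lowered the fibrillar collagens COL1A1 (log2 -1.61) and COL3A1 (log2 -1.81) in senescent cells. The small proteoglycans LUM (log2 1.87) and DCN (log2 0.25) were the substrates that rose there. Genes of proteases and of their substrates thus fell in the same libraries.

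Among 7 metalloproteases that TIMP3 inhibits, 5 rose and 1 fell with bleomycin (median 0.50), where 29.8% of all tested genes rose and 29.4% fell. With doxycycline in senescent cells 2 rose and 3 fell (median -0.23), where 22.6% of all genes rose and 23.8% fell, so the share that rose is near the background. ADAM12 rose most with bleomycin (log2 4.50, adjusted p = 3.34e-09), to 10.4 ± 0.404 CPM in senescent cells, against 0.456 ± 0.149 CPM in proliferating cells. ADAMTS5, an aggrecan-cutting enzyme, fell with bleomycin (log2 -0.39, adjusted p = 0.00949) and rose with doxycycline in senescent cells (log2 1.77, adjusted p = 8.26e-09). TIMP3 went the other way in both. Like TIMP3, ADAMTS5 rose with doxycycline in proliferating cells (log2 0.81, adjusted p = 6.77e-05) and with bleomycin under doxycycline (log2 0.57, adjusted p = 0.000337). ADAM17, the TNF convertase, rose with bleomycin (log2 0.50, adjusted p = 3.81e-05).

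The cytokines and growth factors known to induce MMP genes rose with bleomycin in 9 of 11 tested cases and fell in none (median 1.40). Of all tested genes 29.8% rose and 29.4% fell. With total counts 8 rose and 1 fell, where 3800 of all 17155 tested genes rose and 6441 fell. Doxycycline in senescent cells raised 2 and lowered 6 (median -1.32), where 22.6% of all genes rose and 23.8% fell. IL1A averaged 18.6 ± 3.05 CPM in senescent cells with doxycycline and 109 ± 34.3 CPM in senescent cells, against 0.351 ± 0.122 CPM in proliferating cells with doxycycline and 0.468 ± 0.201 CPM in proliferating cells. IL1B (log2 -2.21), IL6 (log2 -3.11) and LIF (log2 -2.22) fell with IL1A (log2 -2.55) under doxycycline in senescent cells, while HBEGF, an EGF-receptor ligand, rose (log2 1.90). In proliferating cells doxycycline raised 3 and lowered 3 of the 11 (median -0.18), where 12.6% of all genes rose and 10.4% fell. HBEGF rose there (log2 2.86, adjusted p = 1.51e-10), while IL6 (log2 -2.19, adjusted p = 0.00160) and LIF (log2 -1.498, adjusted p = 6.16e-08) fell. Of the 3 TGF-beta ligands, TGFB2 rose in proliferating (log2 4.23) and senescent cells (log2 1.69) with doxycycline, and TGFB1 fell in both (log2 -0.64 and -1.41). TGFB3 rose with doxycycline in senescent cells (log2 1.36, adjusted p = 0.0134). Doxycycline thus raised 2 and lowered 1 of the ligands in senescent cells, where 22.6% of all genes rose and 23.8% fell. It raised 1 and lowered 1 in proliferating cells, where 12.6% rose and 10.4% fell.

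The AP-1, ETS and RUNX factors that bind MMP promoters were mixed. Of 15, 8 rose and 4 fell with bleomycin (median 0.23), where 29.8% of all tested genes rose and 29.4% fell. With total counts 5 rose and 4 fell, where 3800 of all 17155 tested genes rose and 6441 fell. With doxycycline in senescent cells 3 rose and 5 fell (median 0.09), near the background of 22.6% higher and 23.8% lower. With total counts 6 rose and 5 fell there, where 5649 of all 17155 tested genes rose and 2498 fell. ATF3 rose with bleomycin (log2 2.60, adjusted p = 1.13e-10), whereas FOSL1, which encodes FRA-1, fell (log2 -0.66, adjusted p = 3.91e-05). RUNX2 fell in all 4 simple comparisons, by log2 values from -0.50 to -1.21. JUNB and ETS2 fell with doxycycline in senescent (log2 -0.82 and -0.79) and proliferating cells (log2 -0.67 and -0.72).

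**Figure D5:**
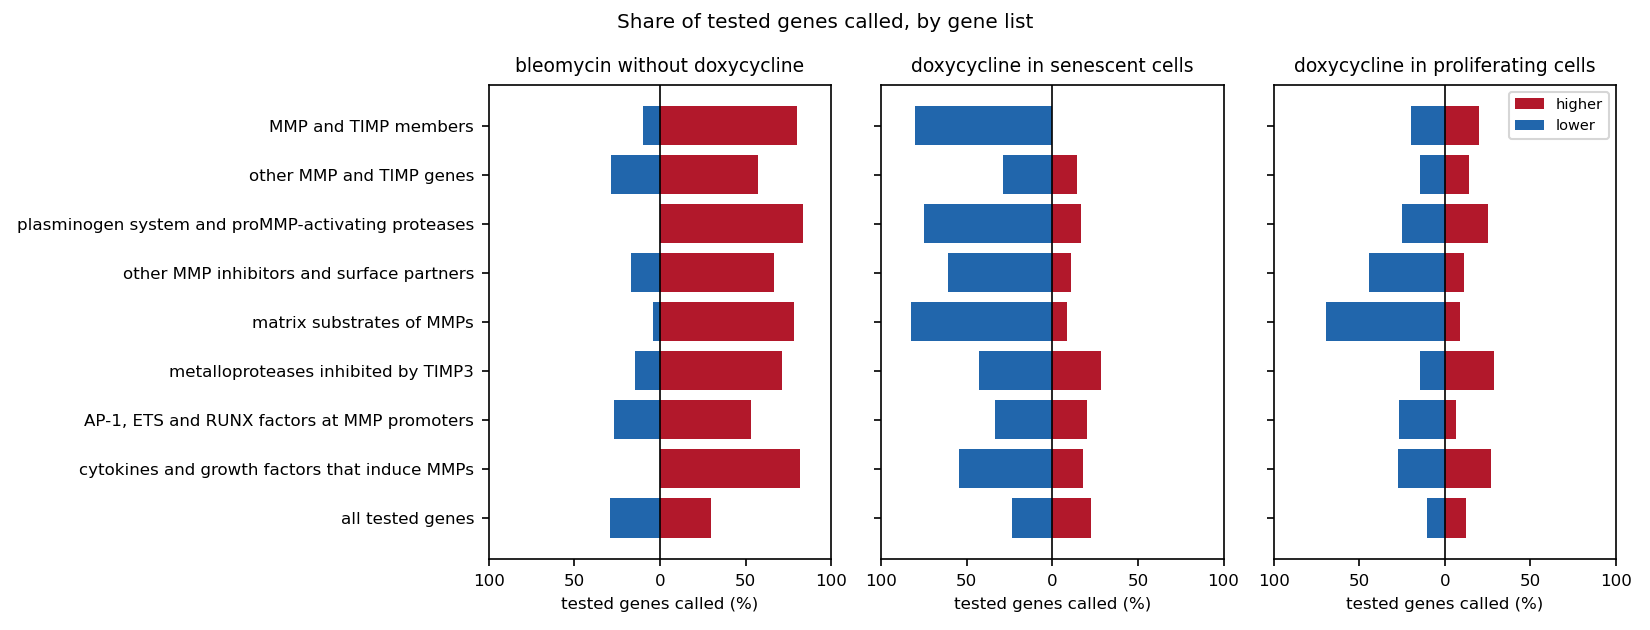
Percent of the tested genes of each list that rose (red, right) or fell (blue, left), for bleomycin without doxycycline and for doxycycline in senescent and in proliferating cells, with the 10 members at the top and all 17155 tested genes at the bottom. The members, matrix substrates and plasminogen-system genes lie mostly to the right for bleomycin and to the left for doxycycline in senescent cells.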

How the data were processed

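The authors deposited unnormalized read counts for each gene, with 1 column for each of the 8 libraries. Per the submitters' processing notes, reads were handled with featureCounts 1.6.3, HISAT2 2.1.0 and Trimmomatic 0.36 on hg38, and per the labels' protocols libraries were made with a stranded mRNA kit from RNA with an integrity number above 7.0. For the annotation and the strand setting, the sources used here say nothing. Genes passing filterByExpr were scaled with TMM factors and fitted in edgeR 4.0.16 (R 4.3.3) with a robust quasi-likelihood model of 4 groups, with 4 residual degrees of freedom. The 5 contrasts were tested, two-sided, at an adjusted p of 0.05 (Benjamini-Hochberg over 17155 genes). Counts were also analysed with limma 3.58.1 (voom) and DESeq2 1.42.0, and plots were drawn with matplotlib 3.10.9 (Python 3.11.15). Precision is set by depths of 33627708 to 39692162 counts a library and by the 2 replicates, and count floors cover counting error only.

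The members and the 12 gene lists (144 genes) were chosen with earlier results of these data known. Named genes are the members, YAP1, up to 4 genes per list and contrast with the largest change past the threshold, other genes of a list being described, the 3 nearest genes by pattern, and genes overlapping a member. Replicates are numbered as in the titles, and the model has no replicate term, since no label says that numbers pair libraries. Alternatives were other scalings, tools and filters, replicate blocks, a fit without robust estimation, only the libraries compared, and each library left out. Not every gene that meets this rule is reported here.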

Additional observations from a re-analysis of the deposited data

Results flagged for a closer look

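The doxycycline effect differed between senescent and proliferating cells for 6 members, by edgeR's test of the difference itself. All 6 were lower, where that test called 11.8% of all tested genes lower and 8.08% higher. The log2 change in senescent cells minus that in proliferating cells was -2.56 for MMP1, -0.97 for MMP2, -0.97 for MMP3, -0.83 for MMP14, -0.54 for TIMP1 and -1.37 for TIMP3. For MMP1 and TIMP3 the changes had opposite signs in the 2 states, and both passed the test in each state. For MMP2 and TIMP1 both changes were falls, the larger in senescent cells. The call of the TIMP1 difference was lost with total counts and with the description's number as a block. That difference ran from -0.71 to -0.36 with a library left out. For MMP3 and MMP14 the change passed in senescent cells and not in proliferating cells.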

How the results depend on the processing

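Of 889 changes of members recomputed under alternatives, 837 kept their direction and side of the threshold, 34 lost the call, 9 gained it and 9 changed sign, none of these 9 called in the reported fit or the alternative. The sign changes were TIMP1 for bleomycin with doxycycline (-0.0100 with no filter, and -0.10 to 0.13 with a library left out), MMP12 for doxycycline in proliferating cells (0.17 with the description's number as a block, and -0.50 to 0.25 with a library left out), MMP16 for doxycycline in senescent cells (-0.16 to 0.24), and the difference between states for MMP10 (0.039 with total counts, and -0.31 to 0.015 with a library left out) and MMP12 (0.023 with total counts, and -0.59 to 0.16). MMP12 for doxycycline in senescent cells passed only with limma-voom (adjusted p = 0.0493). The number of members called ran, with a library left out, over 7 to 9 (bleomycin), 4 to 6 (bleomycin with doxycycline), 4 to 5 (doxycycline, proliferating), 6 to 8 (doxycycline, senescent) and 5 to 6 (difference). No label says that replicate numbers pair the libraries. Residual correlations between libraries of the same title number ran from -0.01 to 0.16. With 2 libraries a group, these values cannot decide whether the numbers pair them. With the title's number as a block, 4355 genes were called for doxycycline in proliferating cells, with the description's number 2353, and without a block 3938. With a library left out that count ran from 2011 to 4155, lowest without either proliferating library (2099 and 2011), and that of the difference, 3407, from 1852 to 3903, lowest without these (1954 and 1852) or replicate 1 of senescent with doxycycline (2022). The cause of these shifts was not tested. A library left alone in its group was taken to have the spread of the other groups. MMP10, with 57 to 140 counts a library, and MMP12 in proliferating cells, with 4 to 7, were limited by depth.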
